A study of Homo sapiens with 3 samples.

Results

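The genes described here encode the metabotropic neurotransmitter receptors: the serotonin receptors other than HTR3, and the dopamine, adrenergic, muscarinic acetylcholine, metabotropic glutamate and GABA-B receptors. They were chosen by symbol among protein-coding genes of the RefSeq table for GRCh38.p14, a rule that uses no measured value but was written with earlier results of these data known. The rule found 41 genes of 20037 protein-coding genes: 12 for serotonin, 5 for dopamine, 9 adrenergic, 5 muscarinic, 8 for glutamate and 2 for GABA-B. Chromatin accessibility was measured by ATAC-seq, in which the transposase Tn5 cuts and tags DNA that is not packed into nucleosomes. The samples were 3 biological replicates of 1 group: neurons grown from the established iPSC (induced pluripotent stem cell) line KOLF2.1J, of human origin, with hNGN2 (human neurogenin 2, a transcription factor that drives stem cells into neurons), at day 14 of differentiation. All 3 came from 1 line without a second genotype, treatment or untreated control, and how hNGN2 was driven is not given in the sources used here. The authors deposited 1 list of peaks for the replicates together, so no value below has a spread over replicates and nothing was tested. Genes are not replicates either, so the transmitter classes are set side by side as descriptions.

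Metabotropic receptors span the membrane 7 times and act through G proteins, in contrast to ionotropic receptors, which are channels that the transmitter opens. Gs raises cyclic AMP through adenylate cyclase, Gi and Go lower it and open potassium channels, and Gq activates phospholipase C beta and releases calcium. In the brain these receptors tune release at the presynaptic terminal and excitability behind the synapse, and many of them are drug targets. Accessible promoters are a common property of genes that a cell can transcribe, but accessibility is no measure of RNA or protein, neither of which was analysed here.

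The list held 145092 entries in 65234 distinct intervals. An interval is a stretch of accessible chromosome, and each entry marks a summit in it, the base with a local maximum of sequenced tags. The tag count at a summit was recovered from the deposited fold enrichment and p-value and ranged over the list from 58 to 3783 with a median of 189. Fold enrichment is the tag count over the local background, with 1 added to both, and ranged from 1.29 to 31.9. Both are read at a single position, so neither depends on the length of the gene. Counting error alone was 13.1% of the tag count at the minimum and 7.27% at the median, and intervals in square brackets are exact Poisson 95% intervals for that error. Tags were amplified by PCR without molecular identifiers and came from a bulk culture, in which fewer nuclei with an open site and less access per nucleus cannot be told apart. Of the markers fixed for the labelled cell type, 8 of 8 neuronal genes had a summit within 1 kb of an outer end or an annotated start, beside 72.1% of all protein-coding genes. The same held for 1 of 2 glutamatergic markers (SLC17A7 had none), 3 of 3 GABAergic, 2 of 4 pluripotency markers (POU5F1 and NANOG had none), 2 of 3 astrocyte markers (GFAP had none), 1 of 3 for oligodendrocytes (MOG was among those with none) and 1 of 3 for microglia (AIF1 and CSF1R had none). On so few genes, counts such as 2 of 3 or 3 of 3 cannot be set apart from that share. Median tag counts over the listed ends were 731 for the neuronal markers, beside 936 for all genes with an accessible end. For the other 6 lists they were between 114 and 239. Of these, the glutamatergic, pluripotency, oligodendrocyte and microglia values rest on 1 gene each. The part of other cells in the results below was not tested.

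A summit lay within 1 kb of an outer end of 33 of the 41 receptor genes, 80.5%, beside 68.8% of all protein-coding genes. The 8 genes without one were HTR6, DRD3, DRD4, DRD5, ADRA1B, CHRM1, CHRM5 and GRM6. By class, an end was accessible in 11 of 12 serotonin, 2 of 5 dopamine, 8 of 9 adrenergic, 3 of 5 muscarinic, 7 of 8 glutamate and 2 of 2 GABA-B genes. Dopamine receptors were thus the class with the lowest share by outer ends, 40.0%, on 5 genes. With annotated starts counted too, dopamine and muscarinic genes both had 3 of 5, 60%, and a window of 2 kb also gave 3 of 5 in both. Class and length were not separated here: 3 of the 5 dopamine and 6 of the 9 adrenergic genes are under 10 kb. Grouped by textbook G protein coupling, the counts were 6 of 8 for Gs, 19 of 22 for Gi/o and 8 of 11 for Gq.

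The share moved with gene length in the genome as a whole. Among all protein-coding genes it was 51.7% under 10 kb, 73.5% from 10 to 100 kb and 82.2% at 100 kb or more. The receptors gave 10 of 12, 9 of 14 and 14 of 15 in the same length classes, so their higher total share came from the short and the long genes and not from those between. The 3 ADRA2 genes, of 2.14 to 3.88 kb, are among the short ones. Both outer ends were accessible in GRM2 and GABBR1 only, 2 of 41, beside 6.70% of all genes.

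The accessible end was mostly the start. A promoter table gave strand and start for 33 receptors. The first outer end was accessible in 24 of them, 72.7%, beside 68.8% of all genes in the table. A summit within 1 kb of any annotated start was found in 27 of them, 81.8%, beside 72.4%. Counting an outer end or any annotated start, 35 of the 41 receptors were accessible, 85.4%, beside 72.1%. The additions were DRD3 and ADRA1B, whose annotated start lies inside the gene's outer bounds. The last end was accessible in 3 of 33 stranded receptors, HTR2A, GRM2 and GABBR1, or 9.09%, beside 9.25%. Just inside the limit of 1 kb were the start of HTR1A, with its nearest summit at 844 bp, and the last ends of GABBR1 at 741 bp and GRM2 at 687 bp. Just outside were the outer start of HTR2A at 1057 bp, the last end of CHRM2 at 1255 bp, the last end of ADRA1B at 1393 bp, the last end of ADRB1 at 1397 bp and the start of DRD4 at 1484 bp. A limit of 500 bp left out HTR1A, and one of 2 kb added ADRA1B and DRD4. At 500 bp GRM2 and GABBR1 also lost their last end but kept the start.

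Where an end was accessible, its strongest summit within 1 kb was in most receptors below the median of all genes. The median tag count over the 33 receptors was 389 (quartiles 257 to 620), beside 936 (497 to 1422) over the 13779 genes with an accessible end. With unlisted ends set to 0, the medians were 331 and 534. Median fold enrichment was 6.42 against 10.4, and 1 of the 33 exceeded the all-gene median. In tag count 3 of 33 exceeded it, among them GRM8 with 1076 tags and GRM3 with 963. The lower level held within each length class. Under 10 kb the receptors had a median of 457 tags against 863.5, from 10 to 100 kb 337 against 985, and at 100 kb or more 407.5 against 852.

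**Figure D1:**
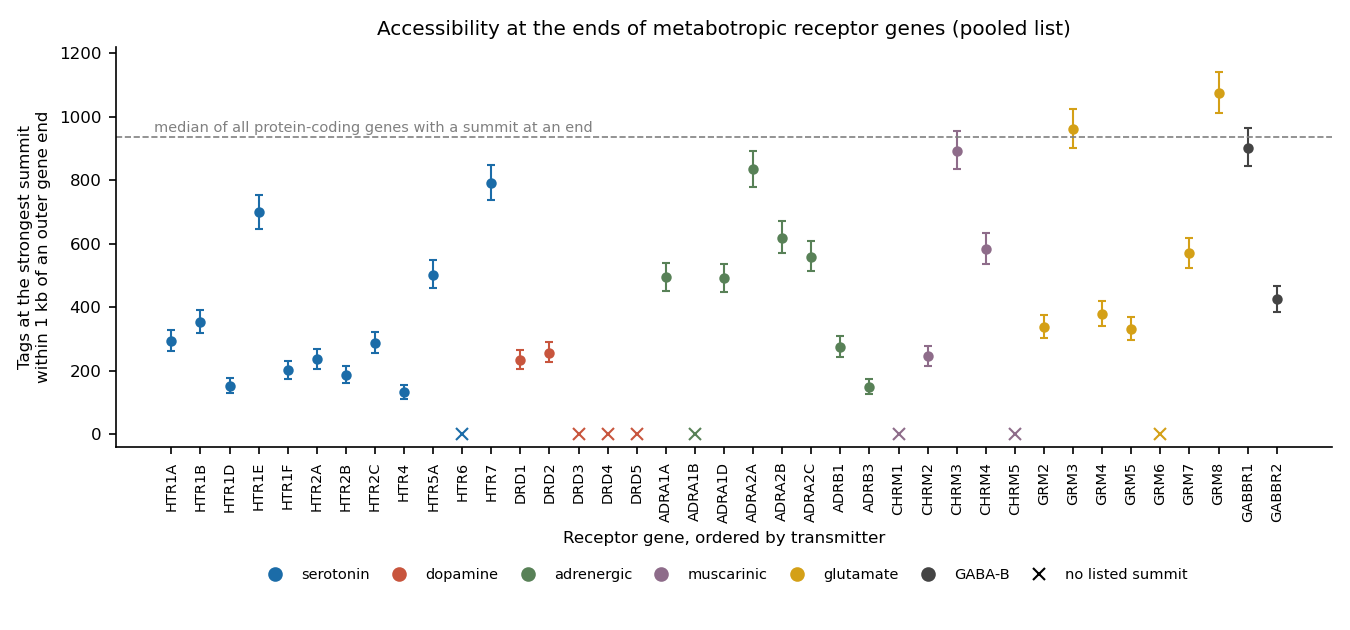
Recovered tag count (vertical axis, tags at the strongest summit within 1 kb of an outer end) of 39 of the 41 receptor genes (horizontal axis), coloured by transmitter class; crosses mark the 8 genes with no listed summit there, and bars are exact Poisson 95% intervals and cover counting error only. The dashed line is the median of all protein-coding genes with an accessible end, 936 tags, and of the receptors drawn GRM8 and GRM3 are above it.

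Class medians of the tag count at accessible ends were 288 for serotonin, 246 for dopamine, 527.5 for adrenergic, 584 for muscarinic, 389 for glutamate and 664.5 for GABA-B. The ranges overlapped: serotonin ends ran from 132 to 791, muscarinic from 246 to 894 and glutamate from 331 to 1076. The order of the class medians therefore says little about any single gene. The 2 dopamine values, 235 and 257, sat below every glutamate value.

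Among the serotonin receptors, the strongest ends belonged to HTR7, HTR1E and HTR5A. HTR7, a Gs-coupled receptor, had 791 tags [737 to 848] and a fold enrichment of 10.1. HTR1E, a Gi-coupled receptor of the HTR1 subfamily, had 699 tags [648 to 753] and a fold of 10.4. The end of HTR5A, also Gi-coupled, had 503 tags [460 to 549] and a fold of 9.25, and its interval also lies over the antisense gene HTR5A-AS1. The rest of the class was lower. HTR1B, a terminal autoreceptor and target of the triptans, had 354 tags within LOC105377864, HTR1A, the somatodendritic autoreceptor, 294, HTR1F 202 and HTR1D 152. HTR2C, a Gq-coupled receptor on the X chromosome, had 288 tags, and HTR2B had 186 at an end that lies inside PSMD1. HTR4, which raises cyclic AMP, had the lowest value of all 33 receptors, 132 tags [110 to 157]. HTR1D and HTR4 were the 2 receptors whose ends were lost when a deposited score of at least 830 was required.

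HTR2A, the receptor through which classical psychedelics act, differed from the other serotonin genes in where it was accessible. Within 1 kb of an outer end it had summits at the last end only, the strongest with 236 tags. The outer start had its nearest summit at 1057 bp. That summit lay 28 bp from a second annotated start, in the interval chr13:46896659-46897192 with 292 tags and a fold of 3.60. A stronger interval stood 3.86 kb inside the outer start, chr13:46893893-46894875, with 574 tags and a fold of 7.08.

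HTR6, a Gs-coupled receptor expressed mainly in the brain, was the serotonin receptor without an accessible end. Its nearest summit was 4935 bp upstream of the start, in chr1:19659454-19660270 with 628 tags and a fold of 9.18. The promoters of HTR7, the strongest serotonin end, and of HTR6 are printed from the RefSeq table for GRCh38.p14 because they look alike in base composition and differ in accessibility. Each runs 5′ to 3′ on the gene's strand from 250 bases before the start to 50 after it, with CpG dinucleotides in capitals. HTR7 is chr10:90857990-90858289 on the minus strand and HTR6 is chr1:19664625-19664924 on the plus strand.
HTR7: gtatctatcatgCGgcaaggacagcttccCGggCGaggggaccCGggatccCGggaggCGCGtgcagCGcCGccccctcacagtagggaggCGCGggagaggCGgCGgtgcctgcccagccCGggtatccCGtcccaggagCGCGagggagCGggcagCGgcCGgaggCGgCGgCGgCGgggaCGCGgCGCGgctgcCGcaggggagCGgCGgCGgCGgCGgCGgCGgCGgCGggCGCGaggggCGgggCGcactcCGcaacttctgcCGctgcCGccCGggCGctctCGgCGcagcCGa
HTR6: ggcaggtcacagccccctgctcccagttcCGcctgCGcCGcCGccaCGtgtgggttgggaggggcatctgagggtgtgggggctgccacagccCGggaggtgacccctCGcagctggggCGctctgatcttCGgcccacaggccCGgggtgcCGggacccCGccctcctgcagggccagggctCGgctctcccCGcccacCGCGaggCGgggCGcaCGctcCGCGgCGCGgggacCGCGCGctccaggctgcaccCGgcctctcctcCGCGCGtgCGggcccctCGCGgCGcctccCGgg
The HTR7 window held 50 CpGs at 80.3% GC and had a summit 2 bp from its start. The HTR6 window held 35 CpGs at 79.0% GC and had none within 1 kb.

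The dopamine receptors divide into the D1 type (DRD1 and DRD5), which couple to Gs, and the D2 type (DRD2, DRD3 and DRD4), which couple to Gi. One gene of each type had an accessible outer end. DRD1 had 235 tags [206 to 267] and a fold of 6.25 at its strongest summit, 0.633 kb upstream of its start. Its nearest summit lay 51 bp from the start. DRD2, the main target of antipsychotic drugs, had 257 tags [227 to 290] and a fold of 5.67. The 2 counting intervals overlapped. DRD5 was the most isolated of the class: its nearest summit lay 18377 bp from the start. DRD4 had its nearest summit 1484 bp from the start, in an interval inside the gene, chr11:638625-639362. The strongest summit of that interval, 1.905 kb from the start, had 183 tags and a fold of 2.63. DRD3 had no summit near an outer end, but chr3:114178655-114179108 with 207 tags and a fold of 6.19 covered its inner annotated starts, with summits 29 and 84 bp away.

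The promoters of DRD1, DRD4, DRD5 and DRD3 are printed in the same way, since they show an accessible and 2 unlisted starts with many CpGs and an accessible start with few. DRD1 is chr5:175444133-175444432 on the minus strand, DRD4 chr11:637019-637318 on the plus strand, DRD5 chr4:9781384-9781683 on the plus strand and the upstream start of DRD3 chr3:114179003-114179302 on the minus strand.
DRD1: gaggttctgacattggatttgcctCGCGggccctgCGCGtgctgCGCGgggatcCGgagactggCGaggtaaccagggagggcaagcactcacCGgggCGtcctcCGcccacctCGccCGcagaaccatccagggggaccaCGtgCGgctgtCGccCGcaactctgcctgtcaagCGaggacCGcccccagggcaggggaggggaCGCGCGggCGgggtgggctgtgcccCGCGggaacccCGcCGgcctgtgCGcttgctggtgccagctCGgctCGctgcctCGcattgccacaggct
DRD4: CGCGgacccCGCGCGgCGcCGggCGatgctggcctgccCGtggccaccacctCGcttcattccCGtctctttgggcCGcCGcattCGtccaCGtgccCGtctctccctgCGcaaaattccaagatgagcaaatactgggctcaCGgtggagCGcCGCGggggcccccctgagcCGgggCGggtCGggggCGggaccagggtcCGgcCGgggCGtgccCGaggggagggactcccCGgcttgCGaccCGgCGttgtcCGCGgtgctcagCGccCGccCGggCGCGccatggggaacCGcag
DRD5: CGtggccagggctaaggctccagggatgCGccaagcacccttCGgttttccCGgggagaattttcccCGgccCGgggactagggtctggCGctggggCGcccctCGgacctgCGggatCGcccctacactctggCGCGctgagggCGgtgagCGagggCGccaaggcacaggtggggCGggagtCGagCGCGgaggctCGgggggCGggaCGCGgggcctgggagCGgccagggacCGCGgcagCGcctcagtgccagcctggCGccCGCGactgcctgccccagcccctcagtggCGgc
DRD3: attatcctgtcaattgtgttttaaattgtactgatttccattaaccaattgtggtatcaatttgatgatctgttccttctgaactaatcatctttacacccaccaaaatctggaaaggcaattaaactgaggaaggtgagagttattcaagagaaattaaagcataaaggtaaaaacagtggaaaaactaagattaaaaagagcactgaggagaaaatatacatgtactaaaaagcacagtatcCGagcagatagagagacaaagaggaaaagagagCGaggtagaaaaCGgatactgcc
DRD1, with 31 CpGs and 72.3% GC, was accessible. DRD4, with 41 CpGs and 75.0% GC, and DRD5, with 32 and 75.3%, were not listed within 1 kb. DRD3, with 3 CpGs and 35.0% GC, was listed.

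The adrenergic receptors respond to noradrenaline and adrenaline. Among the beta receptors, ADRB1, the main one of the heart, had 276 tags with a fold of 5.13, and ADRB3, the beta receptor of fat, 149 tags with a fold of 3.62. The interval at the start of ADRB1 was 2782 bp wide, next to a gene length of 3.04 kb. The Gi-coupled alpha-2 genes were all accessible, ADRA2A with 835 tags, ADRA2B with 620 and ADRA2C with 560. The Gq-coupled alpha-1 genes ADRA1A and ADRA1D had 495 and 491 tags, within each other's counting intervals. ADRA1B had no summit at an outer end, but an interval of 326 tags and a fold of 6.23, chr5:159915787-159917471, held a summit 20 bp from its annotated start, which lies 51.4 kb inside the outer bound.

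Of the muscarinic receptors, the Gq-coupled CHRM3 was the strongest, with 894 tags [836 to 955] and a fold of 9.81. CHRM4, a Gi-coupled receptor, had 584 tags with a fold of 4.99. CHRM2, the other Gi-coupled one, had 246 tags with a fold of 3.49, but its interval was 3114 bp wide with 10 summits and reached all 3 annotated starts. The strongest summit of that interval lay over 1 kb from the end, so CHRM2 dropped out when only the strongest summit of each interval was counted. CHRM1, the main Gq-coupled muscarinic receptor of the cortex, had its nearest summit 2526 bp beyond its last end and the nearest to its annotated start was 15210 bp away. CHRM5 lies within AVEN, and its nearest summits were 8121 bp from its start and 5139 bp from its last end.

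Metabotropic glutamate receptors fall into group I, which couples to Gq and sits mainly behind the synapse, and groups II and III, which couple to Gi and act mainly on release. In group I, GRM5 had 331 tags. In group II, GRM3 had 963 tags [903 to 1026] and GRM2 337, and in group III, GRM8 had 1076 [1013 to 1142], GRM7 571 and GRM4 379. GRM6, the receptor of retinal ON bipolar cells, was the glutamate receptor without an end, and its nearest summit lay 28433 bp from its start. GRM5 had 2 annotated starts, each with its own interval, of 331 and 345 tags. Of the starts of GRM8, 3 of 4 were accessible and the other, with 1 CpG, had its nearest summit 9001 bp away.

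The GABA-B receptor works as a pair of subunits, GABBR1, which binds GABA, and GABBR2, which couples to the G protein. Both were accessible, GABBR1 with 903 tags [845 to 964] and a fold of 7.44 and GABBR2 with 426 [387 to 468] and 4.32. The counting intervals of the partners did not overlap. GABBR1 also had an accessible inner start, 11 bp from a summit and an interval of 288 tags at its last end.

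Genes that act with these receptors were looked up in the same way. Of a list of 43 genes, 41 had a summit at an outer end, 95.3%, beside 68.8% of all protein-coding genes and 82.2% of those of 100 kb or more. The exceptions were the adenylate cyclases ADCY4 and ADCY7. The counts were 13 of 13 G protein alpha subunits, 7 of 9 adenylate cyclases, 4 of 4 phospholipases C beta, 4 of 4 subunits of GIRK potassium channels, 7 of 7 receptor kinases and arrestins, 3 of 3 KCTD subunits of the GABA-B receptor and 3 of 3 HOMER scaffolds of group I glutamate receptors. Their median was 714 tags at a fold of 8.47, above the 389 and 6.42 of the receptors and below the 936 and 10.4 of all genes with an accessible end. Within the list, receptor kinases and arrestins had a median of 1547 tags and alpha subunits 904, whereas adenylate cyclases had 462 and GIRK subunits 446.5.

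The share of accessible promoters went with the CpG content of the start over the genome. The 33 receptors in the table had 44 promoters, 33 of them accessible, 75.0%, beside 69.2% of 22175 promoters. The median window held 16 CpGs in the receptors and 21 in all promoters, and 19 and 9 in accessible and unlisted receptor promoters. Among all promoters 25.2% were accessible with under 10 CpGs and 94.0% with 30 or more. In the receptors those shares were 8 of 15 and 9 of 12. The 3 unlisted ones with 30 or more CpGs were those of DRD4, DRD5 and HTR6, printed among the sequences above. With 10 to 19 CpGs, 10 of 11 receptor promoters were accessible beside 72.6%, and with 20 to 29, 6 of 6 beside 91.7%. GRM6, with 11 CpGs, was the unlisted one of these.

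**Figure D2:**
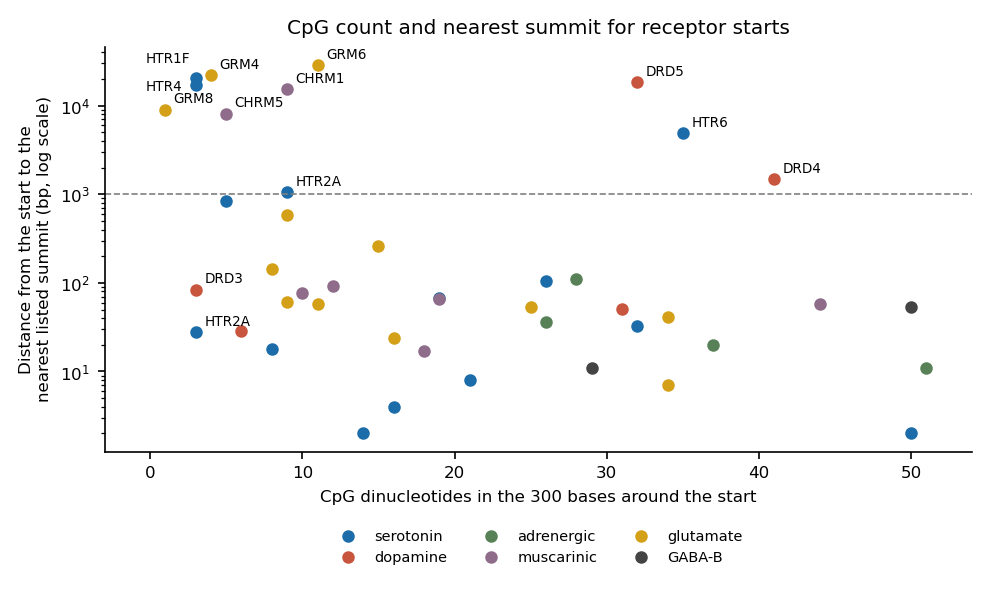
CpG dinucleotides in the 300 bases around each of 44 annotated receptor starts (horizontal axis) and distance from the start to the nearest summit (vertical axis, bp, log scale), coloured by transmitter class; the dashed line marks 1 kb. HTR6, DRD4 and DRD5 stand at the upper right with 32 to 41 CpGs and no summit within 1 kb, while DRD3 and an inner start of HTR2A stand at the lower left with 3 CpGs and a summit within 84 bp.

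These windows were searched for 8 words on both strands. The E-box CANNTG was in 31 of 44 receptor promoters, 70.5%, beside 65.1% of all promoters. CAGATG, a form of it bound by neurogenin-type factors and therefore counted within CANNTG too, was in 8, 18.2%, beside 12.2%. The GC box GGGCGG was in 24, 54.5%, beside 56.3%, CCAAT in 13, 29.5%, beside 34.7%, and TATAAA in 4, 9.09%, beside 9.47%. TGANTCA was in 3, 6.82%, beside 6.14%, the cyclic AMP response element TGACGTCA in 1, that of GABBR1, 2.27% beside 2.26%, and the palindromic NRF1 site in 0 beside 1.5%. Among all promoters GGGCGG was in 69.9% of accessible and 25.7% of unlisted ones, and in the receptors in 21 of 33 and 3 of 11. CAGATG went the other way, with 9.10% and 19.1% of all promoters and 4 of 33 and 4 of 11 of the receptor promoters. A match is a description of letters, and a missing one says only that these letters are not in the window.

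Inside the receptor genes lay 122 intervals, counted by their strongest summit, and 61 of them were in the 8 glutamate receptors. At least 1 was found in 27 of 41 genes, 65.9%, beside 51.2% of all protein-coding genes. The median was 1.60 intervals per 100 kb of gene, beside 0.767, but pooled over all bases the receptors had 2.1 beside 2.37. The median and the pooled rate thus stood on opposite sides of the background. By length, the medians were 0 and 0 under 10 kb, 2.15 beside 1.53 from 10 to 100 kb, and 1.68 beside 2.03 at 100 kb or more. Pooled by class the rates were 1.49 for serotonin, 4.74 for dopamine, 3.44 for adrenergic, 2.25 for muscarinic, 2.00 for glutamate and 2.21 for GABA-B. The dopamine rate rests on 7 intervals, 4 of them in DRD3. Short genes gave extreme rates, such as 29.1 per 100 kb for the 1 interval in DRD4 and 27.7 for that in ADRB3.

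The long receptor genes differed in how many accessible sites they carried. GRM7, of 880 kb, had 13 intervals, GRM8 11, GRM3 and CHRM3 10 each, GRM5 9, and GRM4 and GABBR2 7 each. These counts include the interval at the outer start in CHRM3, GRM5 and GRM4. In GRM7, GRM8, GRM3 and GABBR2 the strongest summit of that interval fell just outside the gene, and it was not counted. Per 100 kb, GRM4 with 5.11, ADRA1B with 4.83 and GRM3 with 4.53 were the densest genes of 100 kb or more. HTR2C, of 326 kb, and HTR1F, of 201 kb, had 1 interval each, the one at their start. In GRM7 none of the 13 exceeded 192 tags, whereas GRM8 held 1 of 749 tags and a fold of 9.64, chr7:126887318-126888771, 365 kb into the gene, and GRM5 held 1 with a fold of 11.9 and 447 tags, chr11:88543991-88544900, 521 kb into the gene.

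**Figure D3:**
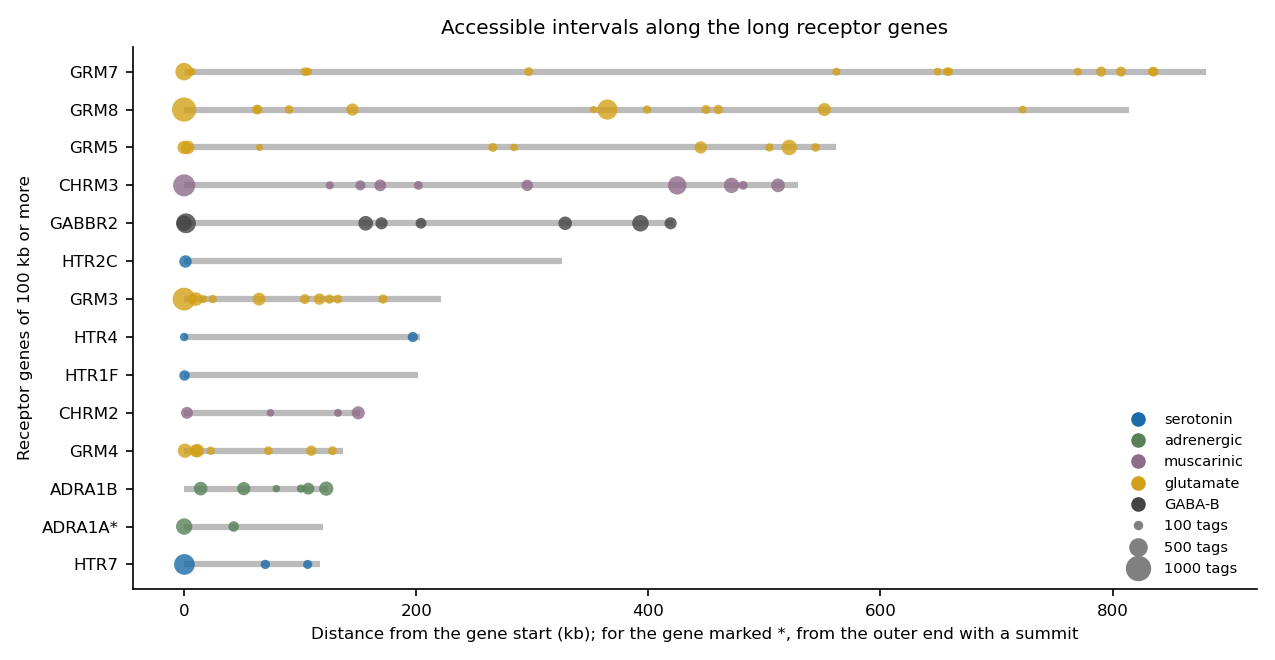
Position of every interval in 14 of the 15 receptor genes of 100 kb or more (horizontal axis, distance in kb from the start, or from the accessible outer end in the gene marked with a star; 1 row per gene) and of the interval at that end where its summit falls just outside; larger points have more tags. GRM7 and GRM8 carry 13 and 11 intervals inside, while HTR2C and HTR1F carry 1 each.

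In the 13 stranded receptor genes of 100 kb or more, 27 of 84 intervals, 32.1%, lay in the first 25% of the gene, beside 27.1% of 15802 intervals in all such genes. Of the intervals inside receptors, 105 were distal, meaning that the strongest summit was over 1 kb from both ends of every annotated gene. Annotated starts inside a gene's outer bounds were not among these ends. Intervals at such starts therefore count as distal, as in DRD3, ADRA1B, HTR2A, GRM4, GRM5 and GABBR1. Their median was 183 tags at a fold of 4.60, beside 207 and 5.06 for the 24119 distal intervals inside protein-coding genes. Those in glutamate receptors had a median of 148.5 tags, and those in GABA-B genes 339, on 56 and 9 intervals.

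Counted within 50 kb of either outer end, the receptors had a median of 2 distal intervals (quartiles 1 to 4), the same as all protein-coding genes. The mean was 2.95 beside 2.52, and 10 of 41 receptors, 24.4%, had 5 or more beside 15.9%. These counts rose with gene length in the genome as a whole, and 15 of the 41 receptors are of 100 kb or more. The count itself depends on length. Below 100 kb the windows around the outer ends overlap, so a shorter gene is searched over a shorter stretch. How much of the rise comes from this was not tested. Under 10 kb the receptors had a median of 2 beside 1 and 8.33% with 5 or more beside 7.36%. From 10 to 100 kb they had 3 beside 2 and 28.6% beside 14.7%, and at 100 kb or more 3 beside 4 and 33.3% beside 34.7%. In the longest class the receptors were thus not above the background. Without any were 5 receptors, HTR2C, ADRA2A, ADRB3, GRM6 and GRM8, beside 16.8% of all genes. Class medians were 3 for serotonin, 2 for dopamine, 1 for adrenergic, 3 for muscarinic, 3.5 for glutamate and 5.5 for GABA-B. Of the 9 adrenergic genes, 8 had 2 or fewer and ADRA1B had 6. However, 6 of the 9 are under 10 kb, where the median was 1 in these 6 and in all protein-coding genes, so class and length cannot be told apart in this order. GRM6 lacked both a summit at an end and a distal interval within 50 kb, and no other receptor did.

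**Figure D4:**
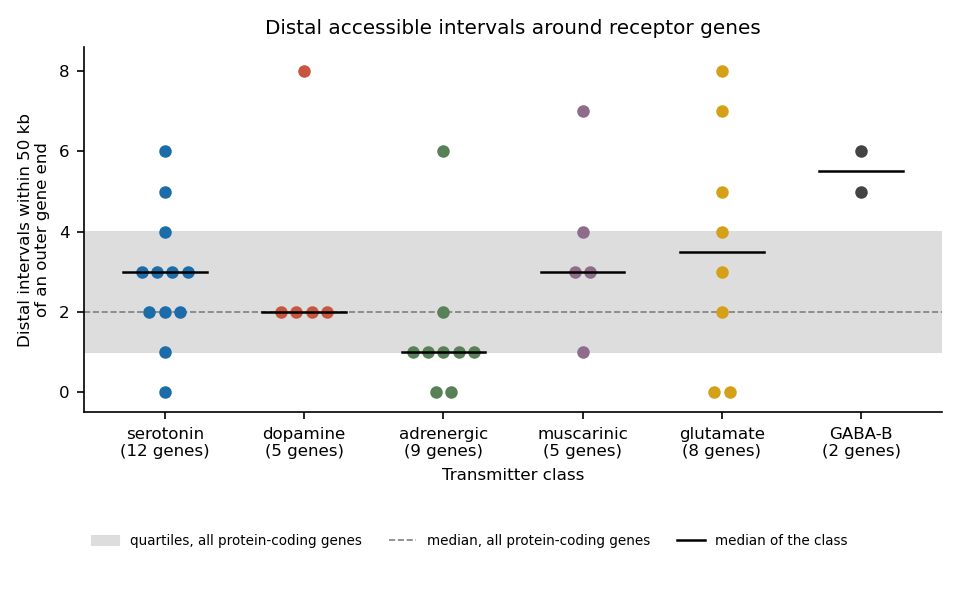
Number of distal intervals within 50 kb of an outer gene end (vertical axis) for each of the 41 receptor genes, by transmitter class; bars are class medians, the grey band spans the quartiles of all protein-coding genes, 1 to 4, and the dashed line their median, 2. The adrenergic median of 1 is the lowest and the GABA-B median of 5.5, on 2 genes, the highest, but the classes differ in gene length and the band is not matched for it.

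DRD3 and GRM4 had the most distal intervals, 8 each. At DRD3, 4 lay inside the gene, the strongest chr3:114154164-114155653 with 541 tags and a fold of 5.51, and the 4 outside ran from 121 to 317 tags on both sides. Of those inside, chr3:114178655-114179108 covers the inner annotated starts, and chr3:114179540-114179971 has its strongest summit within 1 kb of the upstream one. At GRM4, chr6:34144834-34146018 with 301 tags had its strongest summit 581 bp from an inner start. At GRM4 the strongest by tags was chr6:34143738-34144683 with 336 and the strongest by fold chr6:34163293-34164193 with 8.97 and 270 tags, 8.35 kb upstream of the outer start. GRM3 had 7, the strongest chr7:86653893-86654569 with 343 tags and a fold of 6.89, 10.2 kb into the gene. CHRM4 had 7 as well, but 5 of them were inside the neighbouring gene DGKZ, among them the strongest, chr11:46346853-46348184 with 887 tags, and 1 was inside AMBRA1. In its own body CHRM4 had chr11:46389255-46390215 with 650 tags and a fold of 5.26. HTR6, ADRA1B and GABBR1 had 6 each. For HTR6, 3 of the 6 were inside NBL1 and 2 inside TMCO4, and ADRA1B had 1 of its 6 inside TTC1. For GABBR1, chr6:29552644-29552857 and chr6:29552910-29554216 were inside OR2I1. Its intervals chr6:29627616-29628565 and chr6:29628695-29628941 had their strongest summits within 1 kb of its inner annotated start.

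The strongest interval within 50 kb of a class member often belonged to another gene. It lay at an end of RPP30 near HTR7 with 1388 tags, at SFXN1 near DRD1 with 691, at the ends of EMC7 and PGBD4 near CHRM5 with 1535, and at TBC1D2 near GABBR2 with 1489. In the glutamate class it was a receptor's own end, that of GRM8 with 1076 tags. Among distal intervals only, the strongest near a serotonin receptor was chr5:63959119-63959910 inside HTR1A, 2.94 kb from its start, with 646 tags and a fold of 8.07. That exceeded the 294 tags at the HTR1A end itself. For GABA-B it was chr6:29649674-29650618, 16.98 kb upstream of GABBR1, with 1097 tags [1033 to 1164] and a fold of 14.8, and for the muscarinic class chr15:34037947-34039400, with 1292 tags [1223 to 1364] and a fold of 11.5, in the shared body of CHRM5 and AVEN. The interval upstream of GABBR1 had the highest fold of the 121 distal intervals within 50 kb of a receptor. It lies nearer to an outer end of MOG than to one of GABBR1.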

How the data were processed

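ATAC-seq was done on 100000 harvested cells per sample at day 14 in 3 replicates, per the labels' protocols, and the peak list is on hg38, per the submitters' processing notes. The aligner, peak caller and filters are not given in the sources used here. The list has no header, and its name in the labels calls it an optimal set by irreproducible discovery rate. The deposited values per entry were a score (540 to 1000, scaling not stated), a linear fold ratio, and −log10 p and −log10 q values. The tag count is the whole number that returned the deposited ratio and −log10 p under a Poisson tail, with a pseudocount of 1, to within 0.00079. The median miss of the next whole number was 0.266. Its unit is a tag at the summit after the authors pooled the replicates, so depth per replicate is unknown.

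Entries that share bounds were joined into 1 interval, with the values of its strongest summit, and at gene ends any entry's summit counted, the strongest within 1 kb giving the value. Positions are counted from 1. Outer ends came from the RefSeq table of GRCh38.p14, which holds no strand and no exons, so exon, intron and UTR were not assigned. Strand, starts and sequences came from the RefSeq promoter table, which held 33 of the 41 members; ADRA1A, ADRA1D, ADRA2B, ADRB3, DRD2 and HTR2B were among those not in it. All 41 enter the counts and medians, but the values of 2 members, and some that the naming rule selects, are not reported here. The members, the lists of pathway genes and cell type markers, and the grouping by G protein were chosen with earlier results of these data known. The naming rule was to name every member, pathway genes without an accessible end, overlapping genes, and in full the 5 members highest in fold at an end, the 5 with the most distal intervals and the strongest interval of each class; ties were kept. Alternatives were windows of 2 kb and of 500 bp, the strongest summit only, an overlap of 1 bp, a score of at least 830, every entry counted, gene bounds moved by 1 kb, and distal windows of 20 and 100 kb or other definitions. The scripts were tested on simulated data. Python 3.11.15, numpy 2.4.6, scipy 1.17.1, pandas 2.3.3 and matplotlib 3.10.9 were used.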

Additional observations from a re-analysis of the deposited data

How the results depend on the processing

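No paired analysis was possible because there is 1 group, whose replicates have no values of their own in the list, and so no replicate was left out. Of 61 alternative values for 16 results, 46 kept within 1.5 times the main count or value and 15 moved. The number of receptors with an accessible end stayed between 31 and 35, including 35 with any annotated start added, an alternative chosen after the data had been seen, and the number with an accessible start between 25 and 28. By class, the count of genes with an accessible end stayed within 1.5 times under each alternative run. The median of 1.60 intervals per 100 kb became 6.08 with every summit entry counted, 4.76 with 1 kb added on each side of the gene and 0.681 at a score of at least 830, where the all-gene median was 0. The first 2 changes follow from the wider count, and the cause of the last was not tested. The median of 2 distal intervals, equal to that of all genes, became 1 within 20 kb, also equal, 5 beside 4 within 100 kb and 1 beside 2 outside the gene only; it was 3 beside 2 when distal was set by protein-coding ends alone. Within 20 kb the class medians were 1 for serotonin, 0 for adrenergic, 1.5 for glutamate and 3 for GABA-B. Within 100 kb they were 3 for adrenergic, 6 for muscarinic, 7.5 for glutamate and 8.5 for GABA-B, and at a score of at least 830 the adrenergic median was 0. Adrenergic genes had the lowest class median at 20 kb and at a score of at least 830, and shared it with dopamine, at 3, within 100 kb. Depth limits what an unlisted end can mean: no interval in the list had under 58 tags at its summit, so an unlisted end was below the authors' threshold and is not shown to be closed.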
